A study of Mus musculus with 4 samples.

Results

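The genes described here are 34 mouse genes of the thioredoxin system, the glutathione system and the wider antioxidant defence, out of 50600 gene entries counted in this study. They were chosen by name and function, and each name matched 1 counted gene through its identifier. RNA was sequenced from 4 libraries of primary cells of the C57BL/6NJ mouse strain that carry the cell type label regulatory T cell, and the 4 libraries, biological replicates 1 to 4, form 1 group. The labels give no genotype, treatment, sex or age for these cells, name 4 biosamples and 1 donor record, and cite a protocol for differentiating CD4 T cells, while the sample name inside each count file adds the word activated and a time of 0 h. No other group was analysed, so genes were set against each other inside a library, and differences between libraries were described. Because nothing states that the 4 samples came from different animals, a p-value below measures variation among these samples alone, part of which may be technical.

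Hydrogen peroxide and other oxidants are made by mitochondria and by membrane oxidases, and T cells use low amounts of them as signals after receptor engagement. Cells hold them in check through a pair of thiol relays that both draw on NADPH. Thioredoxin, kept reduced by thioredoxin reductases, hands electrons to peroxiredoxins. Glutathione, kept reduced by glutathione reductase, hands electrons to glutathione peroxidases and glutaredoxins, and glutathione transferases join it to other molecules. Superoxide dismutases turn superoxide into hydrogen peroxide, which catalase can break down without a thiol. The transcription factor Nrf2 (Nfe2l2), held by its inhibitor Keap1 and degraded when oxidants are low, drives many of these genes through antioxidant response elements in their promoters. Txnip binds reduced thioredoxin, limits glucose uptake and is known as an abundant transcript of resting T cells whose promoter responds to glucose through Mondo-family factors.

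Of the 34 members, 4 (11.8%) are selenoproteins, against 24 of 22028 protein-coding genes (0.109%) in the GENCODE M21 annotation. In these the codon TGA is read as selenocysteine, the amino acid at the reactive centre, and does not end the protein. The coding strand around that codon is shown because it is the feature that links Gpx1, Gpx4, Txnrd1 and Txnrd2, which differed widely in transcript level. Capitals mark the selenocysteine codon, and the letters were read from GENCODE M21 transcripts. In mm10 they lie at chr9:108339421-108339483, chr10:80054707-80054769, chr10:82896007-82896045 and chr16:18477742-18477780, all on the + strand.
Gpx1: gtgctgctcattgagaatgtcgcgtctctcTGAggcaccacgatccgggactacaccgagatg
Gpx4: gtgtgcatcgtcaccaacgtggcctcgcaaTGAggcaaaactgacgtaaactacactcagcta
Txnrd1: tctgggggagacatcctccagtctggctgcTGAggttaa
Txnrd2: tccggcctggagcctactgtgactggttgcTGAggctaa
In the peroxidases the codon lay inside the protein, at codon 47 of 201 in Gpx1 and codon 129 of 253 in the Gpx4 transcript read. In both reductases it was the next to last codon before the stop, at codon 612 of 613 in Txnrd1 and codon 526 of 527 in Txnrd2. In all 4 windows it was followed by GG.

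Promoter sequence from RefSeq (build GRCm38.p6, 250 bases before to 50 bases after each start site) was found for 30 of the 34 members. The Nrf2-linked core TGACNNNGC, searched on both strands, was in 6 of these 30 members (20.0%: Gclm, Nfe2l2, Prdx1, Sod1, Srxn1 and Txnrd1), beside 14.0% of all genes with a promoter in the table. The carbohydrate response element, the Mondo-factor motif, was searched as 2 copies of CACGNG with 5 bases between them. It was in the Txnip promoter and in no other of the 30 members, and in 15 of 27025 genes (0.0555%). These windows are shown because Txnip had the highest level of all members, and Prdx1, Txnrd1 and Gclm stand for the Nrf2-linked genes. They lie at chr3:96557857-96557903, chr4:116685451-116685489, chr10:82859099-82859137 and chr3:122245408-122245446 on the + strand, and capitals mark the motif.
Txnip: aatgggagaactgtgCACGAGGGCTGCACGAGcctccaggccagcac
Prdx1: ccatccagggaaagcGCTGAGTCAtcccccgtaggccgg
Txnrd1: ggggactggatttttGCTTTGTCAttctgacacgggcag
Gclm: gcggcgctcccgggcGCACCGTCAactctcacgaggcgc
The Txnip motif began 85 bases before the start site. The other 3 cores are on the opposite strand to the gene and so read from right to left, and the Prdx1 core overlaps an AP-1 motif, TGANTCA. A match describes the letters of the window and does not show that a factor was bound.

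Most of the antioxidant set was present at substantial levels, and a few of its stress-inducible genes were nearly absent. Levels are length-scaled transcript abundances (TPM), computed from the deposited counts and the exon length of each gene and given as mean ± SD over the 4 libraries (n = 4). In total 31 of the 34 members reached 1 TPM in every library, beside 23.1% of all gene entries and 45.7% of protein-coding genes. At 10 TPM the count was 27 members, beside 35.3% of protein-coding genes, and at 100 TPM it was 8 members, beside 7.61%. The 34 genes together took 0.408% ± 0.0116 of all TPM, from 0.397% in replicate 1 to 0.421% in replicate 2. Txnip alone made up 34.9% ± 1.91 of that sum, and without it the share was 0.265% ± 0.00558. The median of all members was 66.6 ± 0.847 TPM, beside 0.387 ± 0.0236 TPM for all protein-coding genes. Among genes that reached 1 TPM in all libraries, the median was 77.6 ± 1.05 TPM for members and 33.2 ± 0.685 TPM for protein-coding genes. In RNA from bulk cells, fewer cells that express a gene and less of its RNA per cell cannot be told apart.

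**Figure D1:**
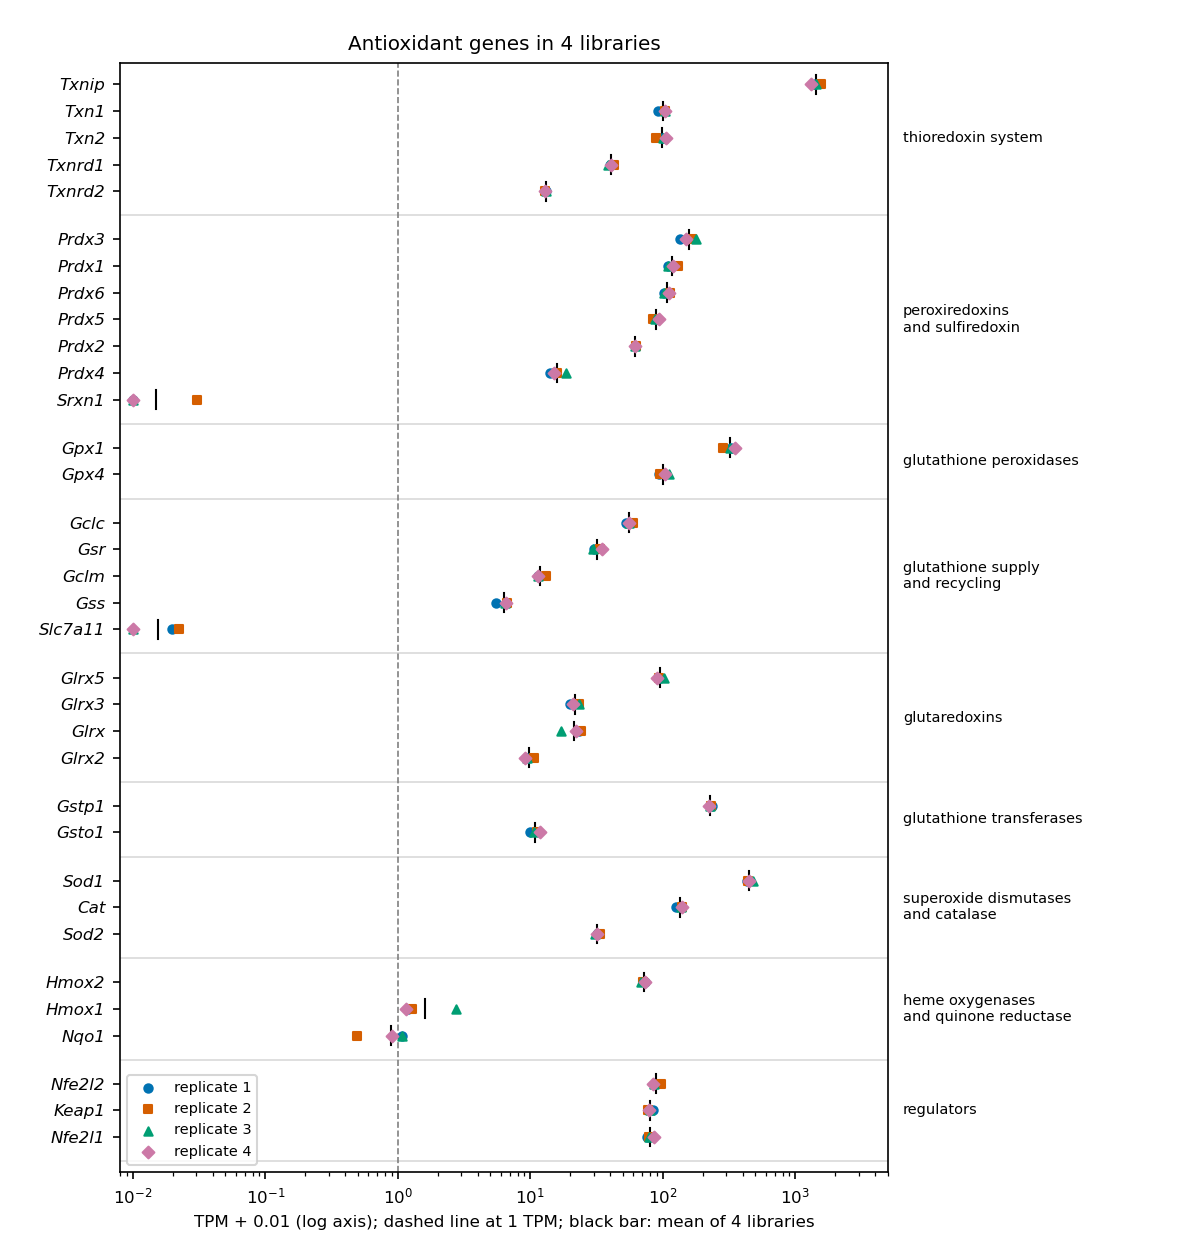
Level of each of the 34 members in each library, on a log axis of TPM with 0.01 added so that a value of 0 can be drawn, ordered by role, with 1 symbol per replicate and a black bar at the mean. Most members lie at or above 5 TPM with the 4 symbols close together, Txnip lies at 1301 TPM or above, and Srxn1, Slc7a11, Nqo1 and Hmox1 lie at the left.

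Txnip, the inhibitor of thioredoxin, was the most abundant member by a wide margin and the 77th most abundant of all genes. The gene lies at chr3:96557957-96561883 on the + strand of mm10. Its levels were 1398, 1571, 1425 and 1301 TPM in replicates 1 to 4, and the lowest of them lay far above the highest library of the next member, Sod1, at 482 TPM. The antisense gene Gm15441, whose transcript overlaps Txnip on the other strand, took 11 to 35 counts where Txnip took 29714 to 86003. Thioredoxins themselves were far lower and nearly equal to each other. The cytosolic Txn1 was at 92.5, 103.0, 104.5 and 103.0 TPM in replicates 1 to 4, and the mitochondrial Txn2 at 98.9, 88.9, 100.7 and 105.0 TPM. Txn1 exceeded Txn2 in 2 libraries and lay below it in the other 2. Txnip exceeded its target Txn1 by a log2 ratio of 3.82 ± 0.13 (14.1-fold), with the same sign in 4 of 4 libraries.

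By TPM, the reductases that recharge thioredoxin were lower than thioredoxin in every library. For Txnrd1 and Txn1 this rests on exon lengths of 7086 and 1051 bases. On scaled counts without length correction, Txnrd1 lay above Txn1 but below Txn2 in every library, and Txnrd2 stayed below both thioredoxins. The cytosolic Txnrd1 was at 39.8, 42.9, 38.4 and 40.4 TPM, and the mitochondrial Txnrd2 at 13.20, 12.97, 13.04 and 12.92 TPM. Txnrd1 was 3.08-fold above Txnrd2 (log2 ratio 1.62 ± 0.07), and their ranges did not overlap. Txnrd2 varied by an SD of 0.123 TPM, which is less than the error of counting alone would give. The 5 genes of the thioredoxin system together held 41.1% ± 1.63 of the TPM of all members.

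Peroxiredoxins, the thiol enzymes that clear most peroxide, were all present, and the enzyme that repairs them was nearly absent. Prdx3, the mitochondrial member, led them with 134, 166, 176 and 149 TPM in replicates 1 to 4, lowest in replicate 1. The cytosolic Prdx1 followed at 117 ± 10.2 TPM, ahead of Prdx6, which uses glutathione for its reduction, at 107 ± 5.61 TPM. Prdx5, found in mitochondria and peroxisomes, was at 88.1 ± 3.78 TPM, and the cytosolic Prdx2 at 61.6 ± 0.518 TPM. Prdx4, the endoplasmic reticulum form, was the lowest at 15.9 ± 1.90 TPM. As transcripts of whole cells, Prdx1 was 1.89-fold above Prdx2 (log2 ratio 0.92 ± 0.12). Prdx3 was 1.77-fold above Prdx5 (log2 ratio 0.82 ± 0.21, or 0.29 on counts without length correction). Srxn1, sulfiredoxin, which reverses the overoxidation of peroxiredoxins and is a well-known Nrf2 target, lies at chr2:152105516-152111376. It had 1 count in replicate 2 and none in the other 3 libraries, where 3 counts, the limit a count of 0 allows, correspond to at most 0.159 TPM. Such limits cover counting error only.

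Glutathione peroxidases ranked high. Gpx1, the general cytosolic peroxidase, was at 329, 285, 321 and 348 TPM in replicates 1 to 4, and Gpx4, which reduces lipid peroxides and blocks ferroptosis, at 93.8, 94.7, 110.4 and 103.1 TPM. Every library of Gpx1 lay above every library of Gpx4, a 3.19-fold difference (log2 ratio 1.67 ± 0.13). Gpx4 shares 59.7% of its 50-base words with other genes, mainly the pseudogene Gpx4-ps2, and fragments that align to more than 1 place were not counted, so its level may be understated. Gpx1 shares none.

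Transcripts for glutathione supply were uneven along the pathway, with the cystine importer Slc7a11 undetected or nearly so. Gclc, the catalytic subunit of the rate-limiting glutamate-cysteine ligase, was at 52.8, 59.9, 55.1 and 55.5 TPM. Its modifier subunit Gclm was at 11.47, 13.04, 11.36 and 11.35 TPM, 4.70-fold lower (log2 ratio 2.23 ± 0.05). Gss, which makes glutathione in the last step, was lower again at 5.49, 6.63, 6.46 and 6.52 TPM. The libraries of Gclc, Gclm and Gss did not overlap with each other. Gsr, which recycles oxidised glutathione, was at 32.0 ± 2.51 TPM, below Txnrd1 in every library (log2 ratio -0.34 ± 0.08). Slc7a11, the cystine importer of system xc- at chr3:49892526-50443614, had 1, 3, 0 and 0 counts in replicates 1 to 4. Over its long exons 3 counts correspond to at most 0.0323 TPM. Its partner chain Slc3a2, which also serves other amino acid carriers, was at 108 ± 3.64 TPM.

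Among glutaredoxins, which reduce mixed disulfides with glutathione or carry iron-sulfur clusters, Glrx5 led and Glrx3 and Glrx were level. The mitochondrial cluster carrier Glrx5 was at 94.3, 92.8, 102.8 and 90.3 TPM and its cytosolic counterpart Glrx3 at 21.8 ± 1.68 TPM, a 4.34-fold difference with no overlap. Glrx3 shares 30.2% of its 50-base words with other genes and Glrx5 none, so the Glrx3 level may be understated, and on counts scaled to library size alone (CPM), without length correction, the sign of this ratio turned (log2 ratio 0.31). The disulfide-reducing Glrx was at 23.1, 24.0, 16.9 and 22.0 TPM, and its mitochondrial relative Glrx2 at 9.57, 10.7, 9.46 and 9.17 TPM. Replicate 3 was the low library for Glrx, yet still above all 4 values of Glrx2. Glutathione transferases join glutathione to reactive molecules, and here Gstp1 stood at 229 ± 4.71 TPM and Gsto1 at 10.9 ± 0.811 TPM, 20.8-fold apart (log2 ratio 4.38 ± 0.13). Gstp1 shares 46.4% of its 50-base words with Gstp2 and the pseudogene Gstp-ps, so its value too may be understated. Gstp2 itself was near the floor at 0.266 ± 0.0730 TPM, while Gstp3, the third gene of the cluster on chromosome 19, was at 255 ± 20.97 TPM.

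Enzymes that act on superoxide and hydrogen peroxide directly were prominent. Sod1, the cytosolic copper-zinc superoxide dismutase, was by TPM the next most abundant member after Txnip, at 430, 438, 482 and 443 TPM. Sod2, the mitochondrial manganese enzyme, was at 31.7, 33.7, 31.0 and 31.8 TPM, 13.9-fold lower (log2 ratio 3.80 ± 0.11, or 1.24 on CPM without length correction). These TPM rest on deposited exon lengths of 646 bases for Sod1 and 3824 for Sod2, where GENCODE M21 gives 3970 and 10008. Cat, catalase of peroxisomes, was at 126, 139, 137 and 140 TPM, with replicate 1 lowest and the others within 4 TPM of each other. The 3 genes together held 15.1% ± 0.573 of the TPM of all members.

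Heme oxygenases, which split heme, and the quinone reductase Nqo1 showed a wide contrast between a constitutive gene and inducible ones. Hmox2, the constitutive form, was at 72.8, 71.3, 68.9 and 73.1 TPM. Hmox1, the inducible form at chr8:75093621-75100589, was at 1.18, 1.27, 2.74 and 1.15 TPM from 15, 39, 32 and 36 counts. Replicate 3 was more than 2 times as high as each other library. Hmox1 was not called variable (edgeR adjusted p = 1.00; the lowest adjusted p over its alternatives was 0.149, with a common dispersion). Hmox2 exceeded Hmox1 in every library, by a log2 ratio of 5.50 ± 0.60 (45.4-fold), or 5.80 without replicate 3. Hmox2 shares 33.0% of its words with Cdip1 on the opposite strand, which strand-specific counting keeps apart. Nqo1, a marker of Nrf2 activity, was at 1.06, 0.478, 1.06 and 0.898 TPM from 12, 13, 11 and 25 counts, and its 95% Poisson intervals, which cover counting error only, overlapped between all libraries.

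Regulators of the response were well represented at similar levels. Nfe2l2 was at 87.7, 97.0, 85.5 and 84.0 TPM, its inhibitor Keap1 at 84.5, 77.8, 79.6 and 78.1 TPM, and the related factor Nfe2l1, which controls proteasome genes, at 76.0, 78.5, 78.3 and 86.0 TPM. Nfe2l2 exceeded Keap1 in 4 of 4 libraries, by a log2 ratio of only 0.14 ± 0.12. Nfe2l1 was below Nfe2l2 in 3 of 4 libraries (log2 ratio -0.15 ± 0.14), with replicate 4 the exception.

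Ordered by mean TPM, neighbouring members overlapped in their library ranges at 18 of 33 steps. The top 4 steps, from Txnip through Sod1, Gpx1 and Gstp1 to Prdx3, showed no overlap in TPM. From Prdx3 down to Nfe2l1 each gene overlapped in range with the next. Inside each of the 4 libraries, though, Prdx3 lay above Cat, Cat above Prdx1, Prdx1 above Prdx6 and Prdx5 above Keap1 by TPM. This order depends on exon length. On CPM, without length correction, Sod1 lay below Gpx1 and Gstp1 below Prdx3 in every library. Prdx3 also lay below Cat, Prdx1 below Prdx6 and Prdx5 below Keap1 there, and Cat lay above Prdx1 in some libraries only.

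Ratios within 18 pairs of members were tested over libraries after adding 0.1 TPM to each value. In 16 of 18 pairs the sign was the same in all 4 libraries, and each of these gave an exact two-sided sign-flip permutation p of 0.125 (adjusted p = 0.141 over the 18 pairs). That is 2 of 16 sign patterns and the lowest value 4 libraries permit, so no pair could reach 0.05. The exceptions were Txn1 against Txn2, whose log2 ratio of 0.04 ± 0.13 gave an exact permutation p of 0.75, and Nfe2l1 against Nfe2l2, at an exact permutation p of 0.25. On CPM, without length correction, the sign also turned for Txn1 over Txn2, Prdx1 over Prdx6, Glrx over Glrx2, Nfe2l1 over Nfe2l2 and Nfe2l2 over Keap1. For Prdx1 against Srxn1 the ratio is set by the added 0.1 TPM and is not read.

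**Figure D2:**
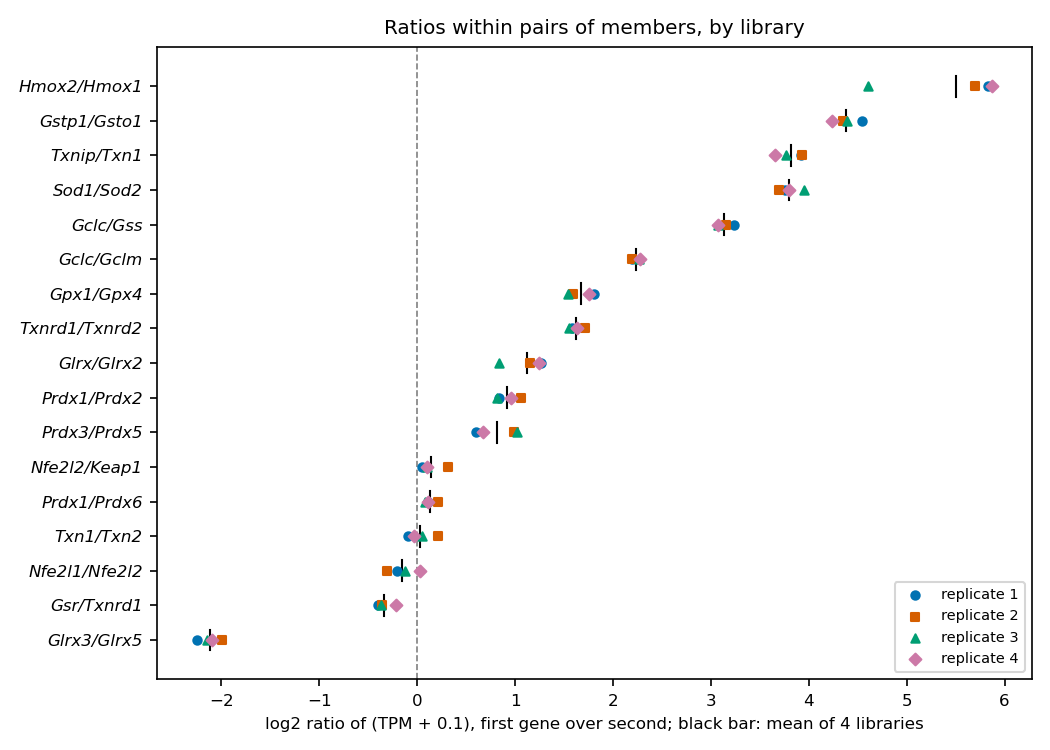
Log2 ratio of the first gene to the second in each of 17 pairs, with 1 symbol per replicate, a black bar at the mean of 4 libraries and a dashed line at equal levels. Hmox2 over Hmox1 is the highest, with replicate 3 apart at 4.60, and Txn1 over Txn2 and Nfe2l1 over Nfe2l2 have symbols on both sides of 0.

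The spread of the members between libraries was like that of other genes at their level. Among the 31 members with enough counts to test, 0 were called variable by edgeR at an adjusted p of 0.05, beside 142 of 12554 genes (1.13%). At an unadjusted p under 0.05 it was 1 member, Prdx3 (edgeR adjusted p = 0.602), beside 5.23% of genes. DESeq2 and limma also called 0 members, beside 0.916% and 0.143% of genes, and each had 2 at an unadjusted p under 0.05, beside 4.49% and 4.51%. A coefficient of variation under 10% was seen in 27 of the 31, beside 63.2% of all tested genes, and in 26 of the 27 members with a mean of at least 10 CPM, beside 86.6% of genes at that level. Apart from Hmox1 (48.7%), the largest was 14.7%, for Glrx. The smallest was 0.840%, for Prdx2, whose libraries ran from 61.1 to 62.3 TPM. This lies below the 2.31% that counting error alone would give, as was so for 3 members in all, so which member is steadiest is not resolved. The median SD of log2 CPM was 0.08 for these 27 members and 0.08 for the 8281 genes at that level.

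**Figure D3:**
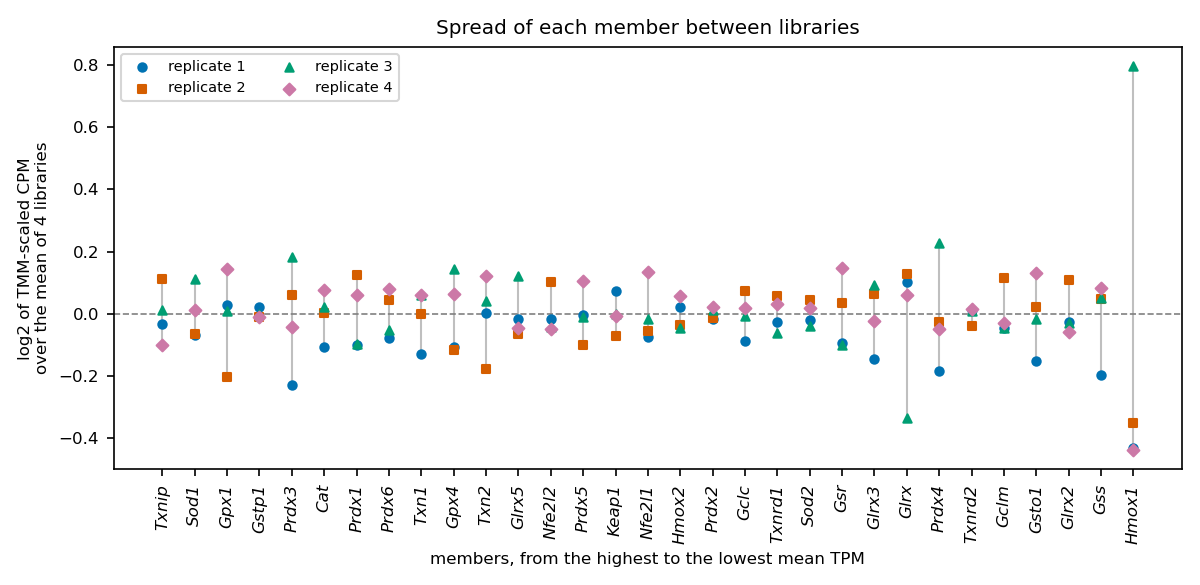
Log2 of the ratio of each tested member's TMM-scaled CPM in each library to its mean CPM over the 4 libraries, with members ordered from the highest to the lowest mean TPM. Symbols of most members lie close to the dashed line at 0, and replicate 3 gives both the highest point, for Hmox1, and the low point of Glrx.

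The small shifts between libraries touched genes of several roles. On the scale of TMM-adjusted CPM, replicate 1 was the lowest library for 14 of the 31 members (45.2%), including Txn1, Prdx3, Prdx6, Cat, Gclc and Gss, beside 26.4% of all tested genes. It was the highest for 2 members (6.45%), beside 26.0% of genes. Replicate 4 was the highest for 12 (38.7%), among them Gpx1, Txn2, Nfe2l1 and Gsr, beside 20.5% of genes. Library depth differed 2.70-fold, with replicates 2 and 4 deeper than replicates 1 and 3. On the same scale 11 members had both deeper libraries wholly on one side of both shallower ones, beside 29.0% of genes. Of these, 8 were higher in the deeper libraries (Gclc, Gclm, Gsr, Gsto1, Prdx1, Prdx6, Sod2 and Txnrd1), beside 14.8% of genes, and 3 were lower (Glrx5, Gstp1 and Keap1), beside 14.2%. The part of depth in these shifts was not tested.

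The depth of the libraries ran from 23000465 to 62090744 gene counts. T cell markers stood at a summed 7711 ± 127 TPM over 6 genes, led by Trac. Of the regulatory T cell markers, Foxp3, the factor that defines these cells, was at 8.28 ± 0.867 TPM, Ctla4 at 7.77 ± 0.959, Ikzf2 at 1.34 ± 0.194, Tnfrsf18 at 107 ± 3.80 and Izumo1r at 167 ± 8.51. All 6 were detected, but Foxp3, Ctla4, Ikzf2 and Il2ra lay below the median of detected protein-coding genes given above, and Foxp3 lay far below Cd4 at 1067 ± 31.4 TPM. The marker that defines the labelled cell type was thus low, which goes against the label, and regulatory T cell is used here as the label alone. Il2ra was at 6.22, 3.63, 9.13 and 3.11 TPM and was called variable (edgeR adjusted p = 1.19e-07). B cell markers summed to 36.6, 23.5, 26.9 and 10.9 TPM over 5 genes, led by Cd79b, and all 5 were called variable. Macrophage and monocyte markers summed to 13.4, 16.6, 16.8 and 13.8 TPM over 9 genes, led by Cd68. Neutrophil markers summed to between 1.26 and 2.51 TPM over 5 genes, led by S100a9 and with Camp and Ngp at 0 counts. Platelet markers summed to between 2.63 and 3.91 TPM over 4 genes, all of it Itga2b. Red cell markers summed to 1.43, 1.67, 3.83 and 1.12 TPM over 7 genes, led by Hbb-bs. Replicate 3 was the highest library for the red cell sum and for Il2ra as well as for Hmox1. It was also the highest for the macrophage and monocyte sum, with replicate 2 close to it. The part of these markers in the Hmox1 value was not tested.

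Beyond the 34 members, 136 further redox genes in 8 lists were read for context. Of these 92 reached 1 TPM in all libraries, beside 45.7% of protein-coding genes, the share to set beside each list below. No count was found for 21, where 22113 of all 50600 gene entries had at least 1 count. Of the 97 tested, 1 was called variable by edgeR, beside the 1.13% given above. Relatives of the peroxidase and dismutase members were sparse: Gpx2, Gpx5, Gpx6, Gpx8 and the extracellular Sod3 had no count. In the same list of 22 other thiol and peroxide enzymes, 13 reached 1 TPM, led by Sesn1 (130 ± 11.9 TPM), Park7 (127 ± 2.33 TPM) and Sesn3 (92.2 ± 5.20 TPM). Among other glutathione transferases 9 of 23 did so, beside the 45.7% of protein-coding genes, and the median of that list was 0.266 TPM, with Gstp3 and Mgst2 (55.7 ± 7.51 TPM) highest and Gstt1 and Gstm6 at 0 counts. Glutathione turnover and NADPH supply had 14 of 17 at 1 TPM, led by Slc3a2 and Idh2 (97.8 ± 4.73 TPM), while Me1 and Ggt6 had no count.

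Most partners of Nrf2 and Nrf1 were present. In this list 14 of 16 reached 1 TPM, with a median of 42.4 TPM and Sqstm1, the adaptor that can sequester Keap1, highest at 238 ± 4.50 TPM. Cul3, the ligase scaffold that Keap1 uses to mark Nrf2 for degradation, was at 111 ± 11.4 TPM, and Vcp, which draws Nfe2l1 out of the endoplasmic reticulum, at 114 ± 5.15 TPM. The related factors Nfe2 and Nfe2l3 had at most 2 counts in any library. Among 17 other Nrf2 target genes, 13 reached 1 TPM, and the ferritin chains Fth1 (1604 ± 66.2 TPM) and Ftl1 (760 ± 28.5 TPM) led. Pir, Aox1 and Akr1b8 had no count. The gene called variable was Osgin1 of this list, a growth inhibitor linked to oxidative stress, at 21.3, 11.0, 16.2 and 21.7 TPM (edgeR adjusted p = 3.68e-04), with replicate 2 lowest.

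Beside the 4 selenoprotein members, most other genes of this class were present. Of 18 genes for selenoprotein synthesis and for other selenoproteins, 17 reached 1 TPM with a median of 52.2 TPM, led by Selenow (794 ± 56.7 TPM), Selenop (498 ± 25.0 TPM) and Selenot (154 ± 10.7 TPM). Of 15 genes of oxidant-producing enzymes, 7 reached 1 TPM, beside the 45.7% of protein-coding genes. Their median was 0.605 TPM, beside 0.387 TPM for all protein-coding genes. The shared subunits Rac2 (1640 ± 42.3 TPM) and Cyba (493 ± 42.3 TPM) were the highest, while Nox4 and Noxa1 had no count. In the list of Txnip relatives and Mondo factors, 5 of 8 reached 1 TPM. Arrdc1, an arrestin-fold relative of Txnip, was at 194 ± 8.25 TPM, and the glucose-responsive partners Mlx and Mlxip were at 126 ± 2.91 and 125 ± 5.53 TPM. Mlxipl, the liver-type partner, had at most 6 counts in any library, and Arrdc5 had none.

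**Figure D4:**
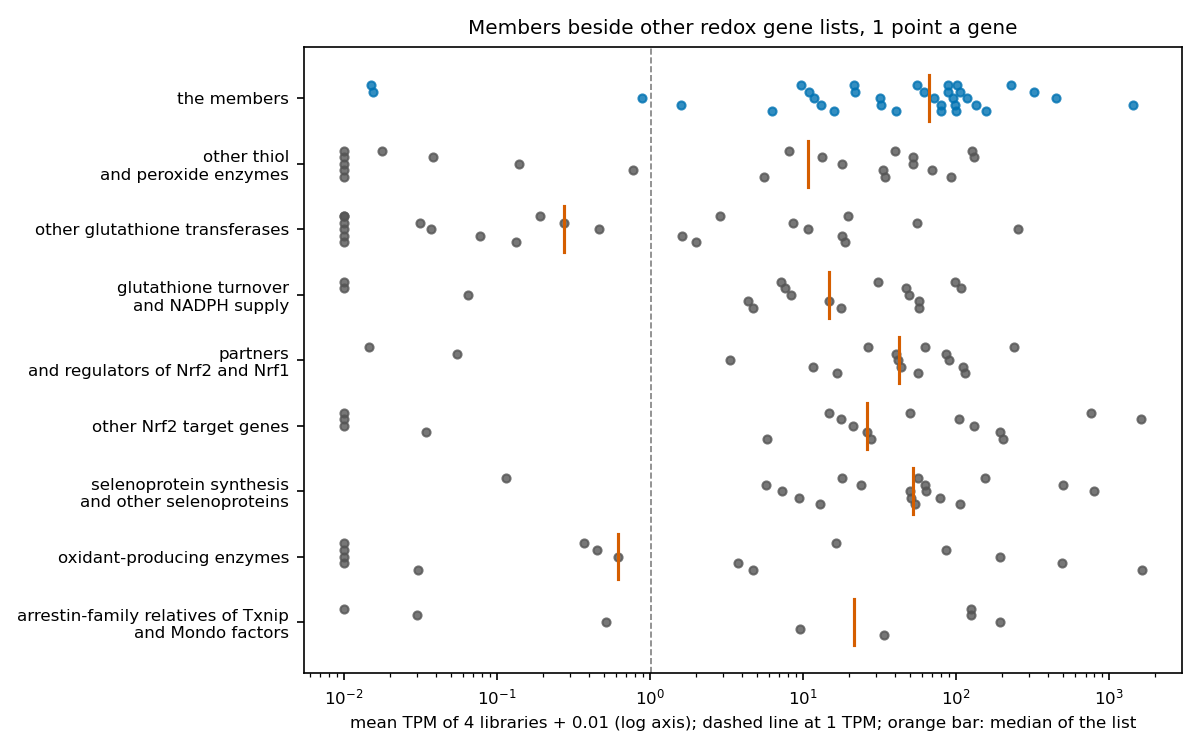
Mean TPM over 4 libraries of each member and of each gene in 8 other redox lists, on a log axis with 0.01 added, with 1 point per gene, an orange bar at the list median and a dashed line at 1 TPM. The members' median of about 67 TPM is followed by the selenoprotein list at 52.2 TPM, while other glutathione transferases and oxidant producers have medians below 1 TPM.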

How the data were processed

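The deposited values were raw counts of fragments for each gene. Per the file headers, the authors ran featureCounts (1.4.6-p4) on exons in GENCODE M13 and mm10, with both ends of a read pair required to align and strand setting 2, from alignments named for STAR. Per the file headers, fragments with several alignments or over several genes were not counted. Exon lengths came from the same deposited files, and the labels give total RNA as the molecule while citing a library protocol for poly(A) RNA. TPM, CPM and sequence sharing (50-base words, every 10 bases of the GENCODE M21 transcripts) were computed here. TPM uses the length of all exons of a gene, which lowers the value of genes with long, seldom used exons. The deposited lengths, from M13, are shorter than the M21 exon lengths for Sod1 and Sod2, given above. The same holds for Glrx5 (930 against 3682 bases), Glrx (1345 against 5494), Gstp1 (757 against 1548) and Gsto1 (1968 against 2023). Levels on M21 lengths were not computed. Symbols and 1-based coordinates came from GENCODE M21, which matched 50376 of 50600 genes and all 212 symbols of the lists. The members and lists were chosen with earlier results of these data known. Named genes are all members, all regulatory T cell markers, the 3 highest and 2 lowest genes of each context list, those called variable, and for other marker lists the leading gene and those without a count. Genes outside this rule were named with their values known, and 1 gene that the rule includes is not reported here by name.

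Variability was tested with edgeR 4.0.16 under R 4.3.3. After filterByExpr and TMM scaling, glmQLFit was run with an intercept alone, and each gene's residual deviance, taken at the dispersion trend, was set against a chi-square with 3 degrees of freedom and adjusted by Benjamini-Hochberg over all genes tested. Alternatives used DESeq2 1.42.0, limma 3.58.1, other scalings, filters and thresholds, and left out each library. Pair ratios used an exact sign-flip test. Both steps were tested on simulated data. Other values were made with Python 3.11.15 (numpy 2.4.6, pandas 2.3.3, scipy 1.17.1, matplotlib 3.10.9).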

Additional observations from a re-analysis of the deposited data

Results flagged for a closer look

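In 7 of 62 values examined, 1 library stood apart from the other 3 by a gap that took up most of the range, and chance does this in about 1 of 20 groups of 4. Among the 31 members in the variability test it was 4 genes, beside 5.50% of the 12554 genes tested. Hmox1 was high in replicate 3, at 2.74 TPM, and the log2 ratio of Hmox2 to Hmox1 was low there, at 4.60. Txn1 at 92.5 TPM and Gss at 5.49 TPM were low in replicate 1. Gclm was high in replicate 2, at 13.04 TPM. Srxn1 was at 0.0202 TPM in replicate 2, which is 1 count, and the log2 ratio of Prdx1 to Srxn1 was 10.22 in replicate 4, a value set by the added 0.1 TPM because Srxn1 had no count there.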

How the results depend on the processing

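The count of members detected in all libraries was between 27 and 31 at thresholds from 0.5 to 10 TPM and 30 at 1 CPM, and 0 members were called variable under every alternative run, each fit with 1 library left out included. The count of all genes called was 142, against 88 with no filter on low counts, 63 at a mean of at least 5 CPM, 18 by limma, 352 with a common dispersion, and 64, 85, 84 and 60 without replicates 1, 2, 3 and 4, which leaves fewer samples. The members' share of TPM was 0.457% with only protein-coding genes outside the mitochondrial genome in the total, 0.299% as percent of counts, 0.265% without Txnip, and 0.403% to 0.411% with 1 library left out. Without length correction, on CPM, the log2 ratios changed sign for Txn1 over Txn2 (-1.96), Prdx1 over Prdx6 (-0.53), Glrx3 over Glrx5 (0.31), Glrx over Glrx2 (-1.56), Nfe2l1 over Nfe2l2 (0.37) and Nfe2l2 over Keap1 (-0.16), since the genes differ in exon length. On the same scale the ratio moved by over 1.5 times with its direction kept, as a log2 value, for Txnip over Txn1 (5.39), Txnrd1 over Txnrd2 (2.31), Gclc over Gclm (1.498), Gclc over Gss (2.49), Gsr over Txnrd1 (-1.70), Sod1 over Sod2 (1.24) and Gstp1 over Gsto1 (2.99). Txn1 over Txn2 was also reversed without replicate 2, the values with 1 library left out running from -0.0236 to 0.0794. Depth limits Hmox1, Nqo1, Slc7a11 and Srxn1, which had at most 39 counts in any library. No paired analysis was possible because there is 1 group.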
